A study of Homo sapiens with 18 samples.

Results

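The 9 genes described here encode proteins with a part in the breakdown of the matrix around cells, or in its control. Among them are the matrix metalloproteinases MMP1, MMP3, MMP10 and MMP14, the plasminogen activators PLAU and PLAT, and the urokinase receptor PLAUR. The others are the plasminogen activator inhibitor SERPINB2, and CEMIP. The 9 genes were taken by name from a table of 27166 genes in 18 RNA sequencing libraries, and all 9 have a row. The set was chosen by the higher TPM of SERPINB2, MMP3 and CEMIP in NCIH838 KDSR KO than in NCIH838 CTRL. The NCIH838 values of the 9 genes are therefore given as a description, with no test.

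The libraries come from 3 human lines: HUH7, a liver line from hepatocellular carcinoma, DLD1, from a colon adenocarcinoma, and NCIH838, from a lung adenocarcinoma. Every culture received a lentiCRISPR v2 lentivirus, which carries Cas9 and 1 guide RNA, and puromycin selection for 5 days in DMEM. The CTRL groups carried a non-targeting guide and the KDSR KO groups a single guide against KDSR, an enzyme of the endoplasmic reticulum in sphingolipid synthesis. HUH7 and DLD1 cells were collected 8 days after infection and NCIH838 cells after 10 days. Each of the 6 groups has 3 libraries, which the design text of the series calls biological triplicates. The cells are selected populations and the labels name no clone. Each line therefore stands for 1 tumour and 1 guide, and line and day cannot be told apart where lines are compared.

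As background, MMP1 is a collagenase that cuts fibrillar collagens, MMP3 and MMP10 are stromelysins that cut proteoglycans and can activate other pro-metalloproteinases, and MMP14 is anchored in the plasma membrane and activates pro-MMP2. The urokinase PLAU and the tissue activator PLAT turn plasminogen into plasmin, a broad protease that also acts on pro-metalloproteinases, and PLAUR holds urokinase at the cell surface. SERPINB2 (PAI-2) inhibits both activators, and CEMIP takes part in the breakdown of hyaluronan.

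Levels are in TPM, which gives a gene's share of the measured RNA corrected for gene length, so that levels of different genes can be set side by side. In bulk cultures, fewer cells that express a gene and less RNA of it per cell cannot be told apart. Differences are KDSR KO minus CTRL on the log2(TPM + 1) scale with a standard error (SE) from limma. Adding 1 pulls the difference of a gene of low level toward 0, so ratios of reads are given beside it, with 95% exact intervals that cover counting error only. Errors of levels are SDs over 3 libraries. The spread measured here is that between these cultures.

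Depth was 17039634 to 20385767 reads per library, and mitochondrial genes took 6.317% to 15.208% of TPM. KDSR itself fell from 29.7 ± 2.5 to 19.2 ± 0.413 TPM in DLD1 (limma adjusted p = 0.000775) and was at 5.79 ± 0.73 and 3.63 ± 0.401 TPM in HUH7 (limma adjusted p = 0.114). Its groups did not overlap in either line, where an exact permutation test, two-sided, gave p = 0.1, the smallest that 3 against 3 allows. In NCIH838 the KDSR level was 13.4 ± 1.39 TPM with the control guide and 12.9 ± 0.821 TPM with the KDSR guide (exact permutation p = 0.7, limma adjusted p = 0.681). The RNA level thus does not check the labels of that line, and KDSR KO names the labelled group throughout. The lines were checked against marker lists. The 8 liver markers summed to between 14200 and 15700 TPM in HUH7 libraries, and the 8 colon markers to between 577 and 609 TPM in DLD1 CTRL and between 484 and 495 TPM in DLD1 KDSR KO. Of the 6 colon markers tested in DLD1, CDX2, VIL1 and LGR5 fell and CEACAM5 rose, where 12.1% of all genes tested were called lower and 5.16% higher. The part of these markers in the DLD1 results was not tested. Of 7 lung markers KRT7 alone had group means of 1 TPM or more in NCIH838, and SFTPA1 and SCGB1A1 were at 0 or had no row. The defining markers of lung epithelium thus do not mark this line. The liver markers summed to 8.55 TPM in NCIH838 CTRL replicate 1 and to between 0.799 and 1.53 TPM in the KDSR KO libraries. Without that library the NCIH838 differences kept their signs, with MMP3 at 2.58 and SERPINB2 at 4.04.

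Promoter letters were available in RefSeq (GRCh38.p14) for 6 of the 9 genes, as windows from 250 bases before to 50 after a start site. They are MMP10, MMP14, PLAU with 2 start sites, PLAUR, SERPINB2 and CEMIP. The 4 stretches shown are those of members whose window held one of the searched motifs, and 3 of them belong to genes that were many times higher in NCIH838 KDSR KO. Each runs from base -200 to base -1 before the start site, 5′ to 3′ on the gene's strand. Capitals mark TGANTCA, the element bound by AP-1 (FOS and JUN proteins), and TATAAA, the TATA box.
SERPINB2: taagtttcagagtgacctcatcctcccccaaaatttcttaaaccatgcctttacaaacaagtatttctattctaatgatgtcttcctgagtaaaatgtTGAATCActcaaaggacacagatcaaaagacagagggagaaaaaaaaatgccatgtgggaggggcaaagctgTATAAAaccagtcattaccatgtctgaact
MMP10: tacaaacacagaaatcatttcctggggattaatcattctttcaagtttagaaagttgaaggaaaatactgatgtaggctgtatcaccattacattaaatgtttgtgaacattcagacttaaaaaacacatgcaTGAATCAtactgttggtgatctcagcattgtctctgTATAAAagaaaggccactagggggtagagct
CEMIP: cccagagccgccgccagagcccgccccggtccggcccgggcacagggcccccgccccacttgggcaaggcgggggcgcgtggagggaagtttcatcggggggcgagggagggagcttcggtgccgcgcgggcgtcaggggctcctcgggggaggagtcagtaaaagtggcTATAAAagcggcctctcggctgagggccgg
PLAUR: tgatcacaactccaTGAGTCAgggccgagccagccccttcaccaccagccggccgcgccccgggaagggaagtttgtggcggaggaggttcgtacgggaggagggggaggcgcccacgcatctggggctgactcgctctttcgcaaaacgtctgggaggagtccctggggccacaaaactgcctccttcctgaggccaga
The stretches lie at chr18:63887505-63887704 on the plus strand (SERPINB2), chr11:102780629-102780828 on the minus strand (MMP10), chr15:80779170-80779369 on the plus strand (CEMIP) and chr19:43670170-43670369 on the minus strand (PLAUR). The RefSeq start sites of SERPINB2, PLAUR and CEMIP lie inside the GENCODE 29 gene, which begins farther upstream.

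The AP-1 letters stood at -102 to -96 in SERPINB2 and at -67 to -61 in MMP10, both as TGAATCA, and at -186 to -180 in PLAUR as TGAGTCA. The TATA box letters stood at -30 to -25 in SERPINB2 and CEMIP and at -31 to -26 in MMP10. Both strands were searched in windows of 300 bases. TGANTCA, which includes TGAGTCA, was in 3 of the 7 member windows and in 7.71% of all 35116 RefSeq windows, and TATAAA was in 3 of 7 and in 11.5%. TGAGTCA alone was in 1 of 7 and in 4.95%. The cyclic AMP response element TGACGTCA (1.85% of all windows), the TEAD element GGAATG (14.0%) and the heat shock element (0.49%) were in 0 of 7. A match is a run of letters, not a measured binding site.

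In NCIH838, 7 of the 9 genes were higher in all 3 KDSR KO libraries than in any CTRL library, MMP14 was lower, and the groups of PLAT overlapped. Over all 16347 genes tested in this line, 18.9% were higher and 31.9% lower without overlap, so that non-overlap in either direction held for 50.8%, and limma called 42.5%. Because this contrast chose the genes, nothing is read from their count. The 9 differences ranged from -0.31 to 3.87, given as values only. Over all genes tested in this line the median difference was -0.0868, which is used below beside the medians of other lists and not for the members. All 9 passed the filter of a mean of 1 TPM in the line, but SERPINB2 and MMP10 did so only through the KDSR KO libraries.

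**Figure D1:**
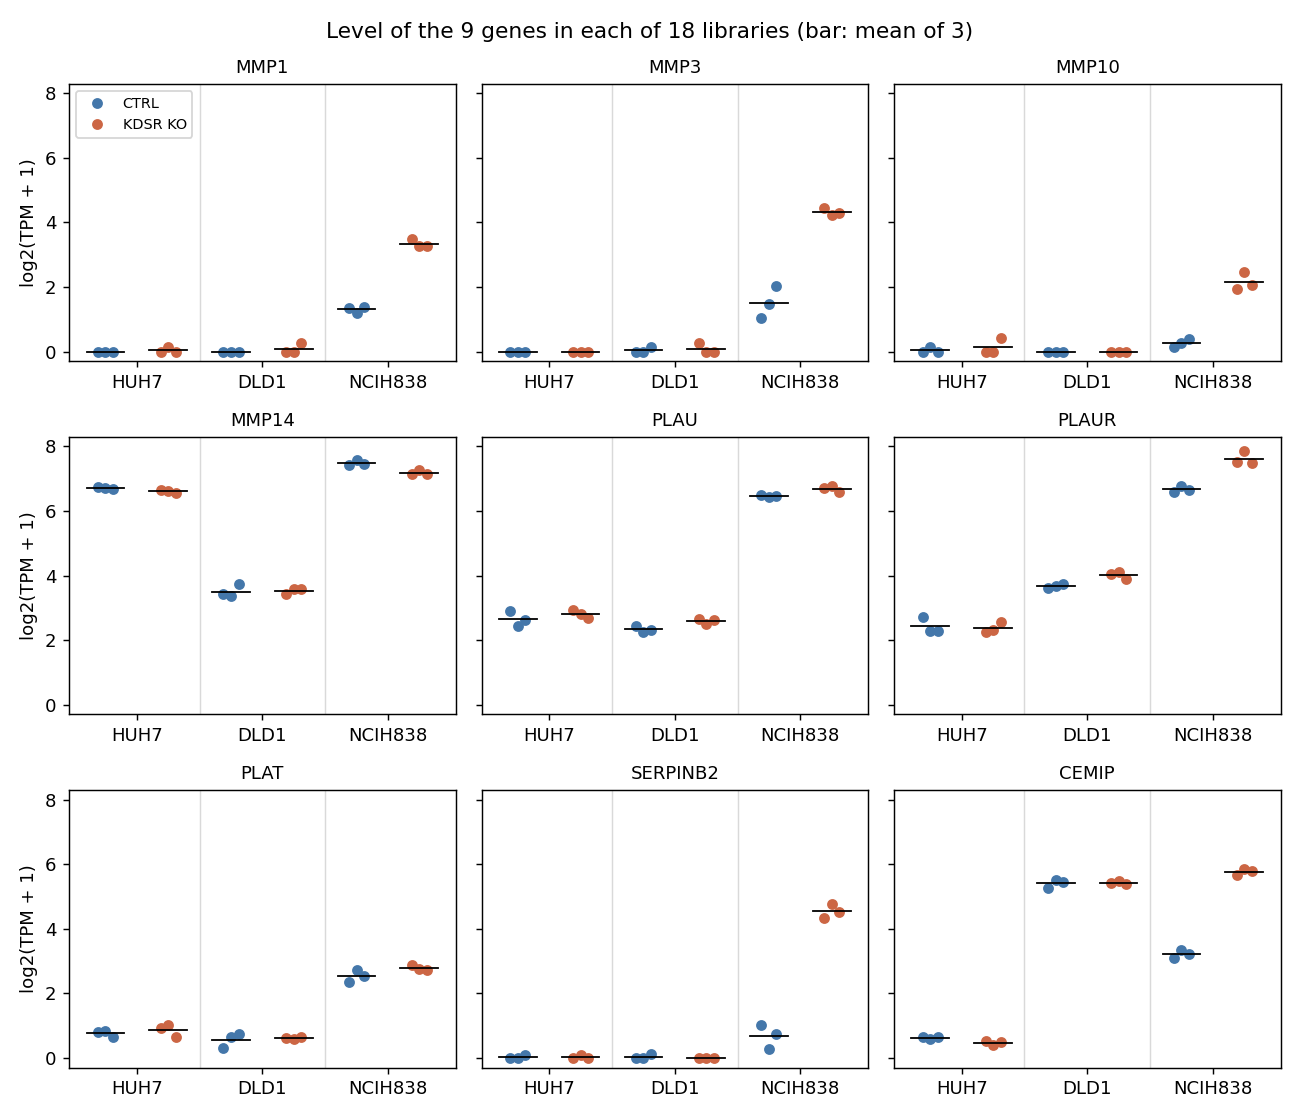
Level of each of the 9 genes as log2(TPM + 1), 1 point per library, with CTRL in blue, KDSR KO in orange and a bar at the mean of 3 libraries. MMP1, MMP3, MMP10 and SERPINB2 lie near 0 in HUH7 and DLD1 and are higher in NCIH838 KDSR KO, and CEMIP in NCIH838 KDSR KO reaches the level it has in both DLD1 groups.

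The collagenase MMP1 and the stromelysins MMP3 and MMP10 lie side by side on chromosome 11, all on the minus strand (hg38, GENCODE 29): MMP10 at chr11:102770503-102780628, MMP1 at chr11:102789920-102798160 and MMP3 at chr11:102835801-102843803, a span of 73.3 kb. MMP3 stood at 1.06, 1.80 and 3.06 TPM in the 3 NCIH838 CTRL libraries (12, 20 and 34 reads), against 21.0, 17.7 and 18.8 TPM in the KDSR KO libraries (230, 199 and 212 reads). The lowest KDSR KO library was several times the highest CTRL library. The means were 1.97 ± 1.01 and 19.1 ± 1.67 TPM (n = 3 each), 9.7-fold, with a read ratio of 9.84 (7.63 to 12.9) and a difference of 2.81 (SE 0.18). MMP1 stood at 1.56, 1.31 and 1.59 TPM in the CTRL libraries (17, 14 and 17 reads), against 10.2, 8.58 and 8.58 TPM in the KDSR KO libraries (108, 93 and 93 reads). Within each group its libraries lay close together and the groups were far apart, at 1.49 ± 0.153 and 9.13 ± 0.953 TPM, 6.14-fold, with a difference of 2.02 (SE 0.10). MMP10 had 1, 2 and 3 reads in CTRL and 27, 44 and 31 in KDSR KO, which is 0.103, 0.21 and 0.315 TPM against 2.87, 4.55 and 3.21 TPM. MMP10 was thus near the limit of detection in CTRL. The read ratio was 17.2 with an interval of 7.64 to 48.0, and the difference of 1.90 (SE 0.14) understates it. The order of the 3 levels in KDSR KO was MMP3, MMP1, MMP10, and their ranges did not overlap.

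Outside NCIH838 these 3 genes and SERPINB2 had 0 reads in 39 of 48 gene and library pairs of HUH7 and DLD1, and at most 3 reads in the others. A count of 0 allows up to 3 reads, which is at most 0.397 TPM for MMP10, the shortest of the 4 genes, and at most 0.254 TPM for SERPINB2. A change in KDSR KO below those levels was not detectable at this depth in HUH7 or DLD1, where none of the 4 passed the filter. The exons of MMP1 and MMP3 share 150 and 32 bases with those of WTAPP1, a pseudogene on the opposite strand at 0.23 TPM in NCIH838. The sources used here do not say whether the counting was stranded.

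MMP14 (chr14:22836557-22849027, plus strand), the membrane-anchored metalloproteinase, had the highest level of the 4 metalloproteinases in every group and was the one member that was lower in NCIH838 KDSR KO. It stood at 173, 189 and 175 TPM in the CTRL libraries, against 141, 154 and 140 TPM in the KDSR KO libraries. The groups did not overlap, but the gap was small beside those of MMP1 and MMP3. The means were 179 ± 8.7 and 145 ± 7.77 TPM, 0.808-fold, a difference of -0.31 (SE 0.08). In HUH7 the CTRL libraries had 106, 105 and 101 TPM of MMP14 and the KDSR KO libraries 99.2, 98.1 and 93.3 TPM. There too the groups did not overlap, with a difference of -0.10 (SE 0.08) that missed the threshold (limma adjusted p = 0.568). In DLD1 its means were 10.4 ± 1.62 and 10.6 ± 0.601 TPM, and the groups overlapped (difference 0.03, limma adjusted p = 0.836). The difference between those responses was 0.13 (SE 0.11, limma adjusted p = 0.553).

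Urokinase, PLAU (chr10:73909177-73917497, plus strand), had its highest levels in NCIH838. There the CTRL libraries had 90.1, 86.3 and 87.2 TPM and the KDSR KO libraries 103, 109 and 96.4 TPM. The groups were separate by a narrow margin, at 87.9 ± 2.0 and 103 ± 6.35 TPM, 1.17-fold, with a difference of 0.22 (SE 0.10). In DLD1 PLAU stood at 4.42, 3.79 and 4.03 TPM in the CTRL libraries, against 5.32, 4.63 and 5.23 TPM in the KDSR KO libraries (51 to 80 reads each). All 3 KDSR KO libraries lay above the CTRL range, with a difference of 0.26 (SE 0.10) that did not pass (limma adjusted p = 0.0891). It passed without HUH7 CTRL replicate 1, which enters through the shared estimate of spread (adjusted p = 0.0341). That library had 12.483% of its TPM in mitochondrial genes, against 7.066% and 8.335% in the other HUH7 CTRL libraries, and the part of this share was not tested. In HUH7 the means were 5.35 ± 0.993 and 6.06 ± 0.67 TPM, and the groups overlapped (difference 0.16, SE 0.10, limma adjusted p = 0.514). PLAU shares 916 exonic bases with C10orf55 on the opposite strand, which stood at 1.177 TPM in NCIH838.

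The tissue activator PLAT (chr8:42175233-42207724, minus strand) stood far below PLAU in NCIH838, with 4.06, 5.63 and 4.76 TPM in the CTRL libraries, against 6.34, 5.74 and 5.55 TPM in the KDSR KO libraries. The groups overlapped, with means of 4.82 ± 0.783 and 5.88 ± 0.416 TPM and a difference of 0.25 (SE 0.13). In HUH7 it had 19 to 35 reads per library and means of 0.706 and 0.837 TPM, and in DLD1 8 to 19 reads and means of 0.489 and 0.535 TPM. Both lines left it under the filter.

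The urokinase receptor PLAUR (chr19:43646095-43670547, minus strand) had the highest level of the 9 genes in NCIH838 KDSR KO. Its CTRL libraries had 96.1, 109 and 99.8 TPM and its KDSR KO libraries 182, 231 and 180 TPM. Its lowest KDSR KO library was well above its highest CTRL library, with means of 102 ± 6.59 and 197 ± 28.7 TPM, 1.94-fold, and a difference of 0.94 (SE 0.12). In DLD1 PLAUR stood at 11.2, 11.7 and 12.3 TPM in the CTRL libraries, against 15.4, 16.4 and 13.8 TPM in the KDSR KO libraries. The groups did not overlap there either, at 11.7 ± 0.556 and 15.2 ± 1.34 TPM, 1.3-fold, with a read ratio of 1.31 (1.19 to 1.44). The difference of 0.35 (SE 0.12) did not pass (limma adjusted p = 0.0662). It did pass when genes under 5 TPM were left out (0.0497), when DLD1 was fitted alone (0.0266), without HUH7 CTRL replicate 1 (0.0262) and without NCIH838 KDSR KO replicate 2 (0.0437). In HUH7 the CTRL libraries had 5.59, 3.88 and 3.88 TPM of PLAUR and the KDSR KO libraries 3.79, 3.97 and 4.90 TPM, where the groups overlapped (difference -0.05, SE 0.12, limma adjusted p = 0.855). The DLD1 response minus the HUH7 response was 0.40 (SE 0.17, limma adjusted p = 0.24).

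SERPINB2 (chr18:63871692-63903890, plus strand), the inhibitor of both activators, had the widest gap of the 9 genes. In NCIH838 it stood at 1.05, 0.201 and 0.671 TPM in the CTRL libraries (16, 3 and 10 reads), against 19.3, 26.3 and 22 TPM in the KDSR KO libraries (284, 398 and 333 reads). One CTRL library was at the floor of 3 reads, and every KDSR KO library was many times higher than any CTRL library. The means were 0.641 ± 0.426 and 22.5 ± 3.54 TPM, 35.2-fold, with a read ratio of 35.4 (24.5 to 53.2). The difference was 3.87 (SE 0.15) with 1 added to TPM, and 5.12 with 0.1 added. Its annotated exons share 547 bases with SERPINB10 on the same strand, which has no row in the table. Reads in those bases cannot be assigned to either gene from the table.

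CEMIP (chr15:80779343-80951776, plus strand) stood at 7.58, 9.19 and 8.22 TPM in the NCIH838 CTRL libraries, against 50, 56.7 and 54.5 TPM in the KDSR KO libraries. The libraries of each group lay close together, at 8.33 ± 0.812 and 53.7 ± 3.42 TPM, 6.45-fold, with 1040 against 6704 reads and a difference of 2.55 (SE 0.08). In DLD1 it was already high, at 37.8, 44.9 and 42.6 TPM in the CTRL libraries, against 41.7, 43.9 and 40.6 TPM in the KDSR KO libraries. Those groups overlapped, with a difference of 0.01 (SE 0.08, limma adjusted p = 0.931) and a read ratio of 1.02 (0.976 to 1.06). In HUH7 CEMIP had 12 to 23 reads per library, 63 in CTRL against 45 in KDSR KO in all, and stayed under the filter. Its read ratio there was 0.703 (0.468 to 1.05). CEMIP shares 224 exonic bases with MESD on the opposite strand, which stood at 34.831 to 42.589 TPM in the 3 lines.

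**Figure D2:**
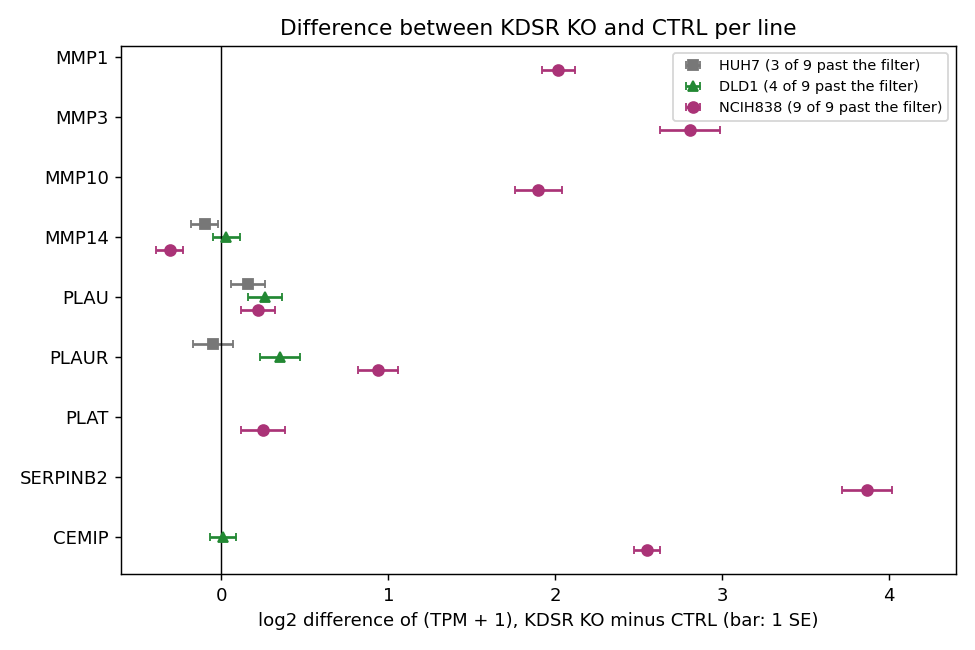
Difference KDSR KO minus CTRL on the log2(TPM + 1) scale for each gene that passed the filter in a line, with bars of 1 SE. NCIH838 points run from -0.31 for MMP14 to 3.87 for SERPINB2, whereas the HUH7 and DLD1 points lie between -0.10 and 0.35.

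In DLD1, 4 of the 9 genes passed the filter (MMP14, PLAU, PLAUR and CEMIP) and 0 of 4 were called at an adjusted p under 0.05 by limma, where 17.3% of all 15478 genes tested were called. At that background a count of 0 of 4 says little about the genes. Of those 4, PLAU and PLAUR were higher without overlap, as were 12.1% of all genes tested, and none was lower, as were 27.2%. In HUH7, 3 of the 9 passed the filter (MMP14, PLAU and PLAUR) and 0 of 3 were called, where 0% of all 16104 genes tested were called. There 1806 genes had an unadjusted p under 0.05, and limma voom on recovered reads also called 0. MMP14 was the 1 of 3 that was lower without overlap, as were 10.1% of all genes tested, and 6.81% were higher in that way. Responses in DLD1 and HUH7 differed for 0 of the 3 members tested in both, beside 2.62% of all 13412 genes tested. The members' responses in NCIH838 minus those in DLD1 were 3.90 for SERPINB2, 2.77 for MMP3 and 2.54 for CEMIP, given as values only because NCIH838 chose them. For PLAUR that value was 0.60 (SE 0.17) and for PLAU -0.03 (SE 0.14).

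The control groups of HUH7 and DLD1 played no part in the choice of the genes, so their levels were tested against each other. CEMIP was higher in DLD1, at 41.8 ± 3.64 against 0.544 ± 0.0441 TPM, a difference of 4.79. It was under 1 TPM in HUH7 and entered this comparison only through DLD1, so it had to differ and is given with no p. PLAUR was also higher in DLD1, at 11.7 against 4.45 TPM (difference 1.24, limma adjusted p = 1.82e-07). MMP14 was lower in DLD1, at 10.4 against 104 TPM (difference -3.21, limma adjusted p = 3.66e-15). PLAU was at 4.08 against 5.35 TPM (difference -0.31, limma adjusted p = 0.00962), but this call was lost with limma voom on reads (0.0535) and without HUH7 CTRL replicate 1 (-0.19, 0.0582). Of the 4 genes that passed the filter, the 3 that did so in both lines were called, beside 75.7% of all 18170 genes tested, 41.7% higher and 34% lower in DLD1. Median ratio scaling moved the median difference of all genes in this contrast from 0.116 to -0.0145, and the 4 differences kept their signs with it.

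Ordered by mean level over the 6 groups, CEMIP ran from NCIH838 KDSR KO (53.7 TPM) through DLD1 KDSR KO (42.1 TPM) and DLD1 CTRL (41.8 TPM) to NCIH838 CTRL (8.33 TPM) and HUH7. The DLD1 groups overlapped and the other neighbours in the order did not. PLAUR ran from NCIH838 KDSR KO through NCIH838 CTRL, DLD1 KDSR KO and DLD1 CTRL to HUH7, and its HUH7 groups alone overlapped. MMP14 ran from NCIH838 CTRL through NCIH838 KDSR KO to HUH7 and DLD1, where the DLD1 groups overlapped. PLAU and PLAT were highest in both NCIH838 groups. PLAU in HUH7 KDSR KO, HUH7 CTRL and DLD1 KDSR KO did not differ beyond the spread of neighbouring groups.

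SERPINB2 lies on the chromosome that carries the targeted gene: its start site is 504.2 kb from that of KDSR (chr18:63327726-63367510, minus strand), with 8 protein-coding genes between them. The stretch holds the SERPINB family cluster, clade B serpins that inhibit proteases or have lost that activity. In NCIH838, 8 genes from BCL2 to SERPINB8 other than SERPINB2 were tested, KDSR included. Of these, 5 were called higher and 1 lower, where 15.7% of all genes tested were called higher and 26.8% lower. SERPINB3 and SERPINB4, among the 5, had to differ, as set out below. The others of the 5 are VPS4B, SERPINB5 and SERPINB8. SERPINB8, beyond SERPINB2, rose from 7.4 to 26.8 TPM (difference 1.73, SE 0.09, limma adjusted p = 3.23e-09). SERPINB5 (maspin) rose from 7.74 to 13.0 TPM (0.68, SE 0.10, limma adjusted p = 7.69e-05). SERPINB4 went from 17 to 59 reads in all (0.88, SE 0.10) and SERPINB3 from 21 to 64 (0.93, SE 0.14). Both were under 1 TPM in CTRL and passed the filter only through the KDSR KO libraries. They therefore had to differ, are given with no p and add nothing to the count of rises. They are near-identical copies, so the split of reads between them is uncertain. SERPINB7, at 10.2 ± 0.869 and 13.1 ± 3.12 TPM, did not pass (limma adjusted p = 0.0645). VPS4B, which is no serpin, rose from 30.9 to 38.2 TPM with limma adjusted p = 0.0435, a call lost in 13 of 25 alternatives, and BCL2, on the other side of KDSR, fell from 2.8 to 1.59 TPM (limma adjusted p = 0.00165). HMSD had 4 reads in CTRL and 1 in KDSR KO.

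In DLD1, SERPINB5 rose from 12.4 to 23.8 TPM (difference 0.89, SE 0.10, limma adjusted p = 4.56e-05) and SERPINB8 from 8.66 to 11.6 TPM (0.39, SE 0.09, limma adjusted p = 0.0117). The SERPINB8 call was lost without DLD1 CTRL replicate 3 (0.0586) and without DLD1 KDSR KO replicate 2 (0.0569). VPS4B stood at 78.1 and 91.7 TPM (limma adjusted p = 0.159). SERPINB2, SERPINB3, SERPINB4 and SERPINB7 had at most 2 reads per group there. With KDSR, 4 genes of the stretch were tested in DLD1, with 2 called higher and 1 lower, beside 5.16% higher and 12.1% lower over all genes tested.

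**Figure D3:**
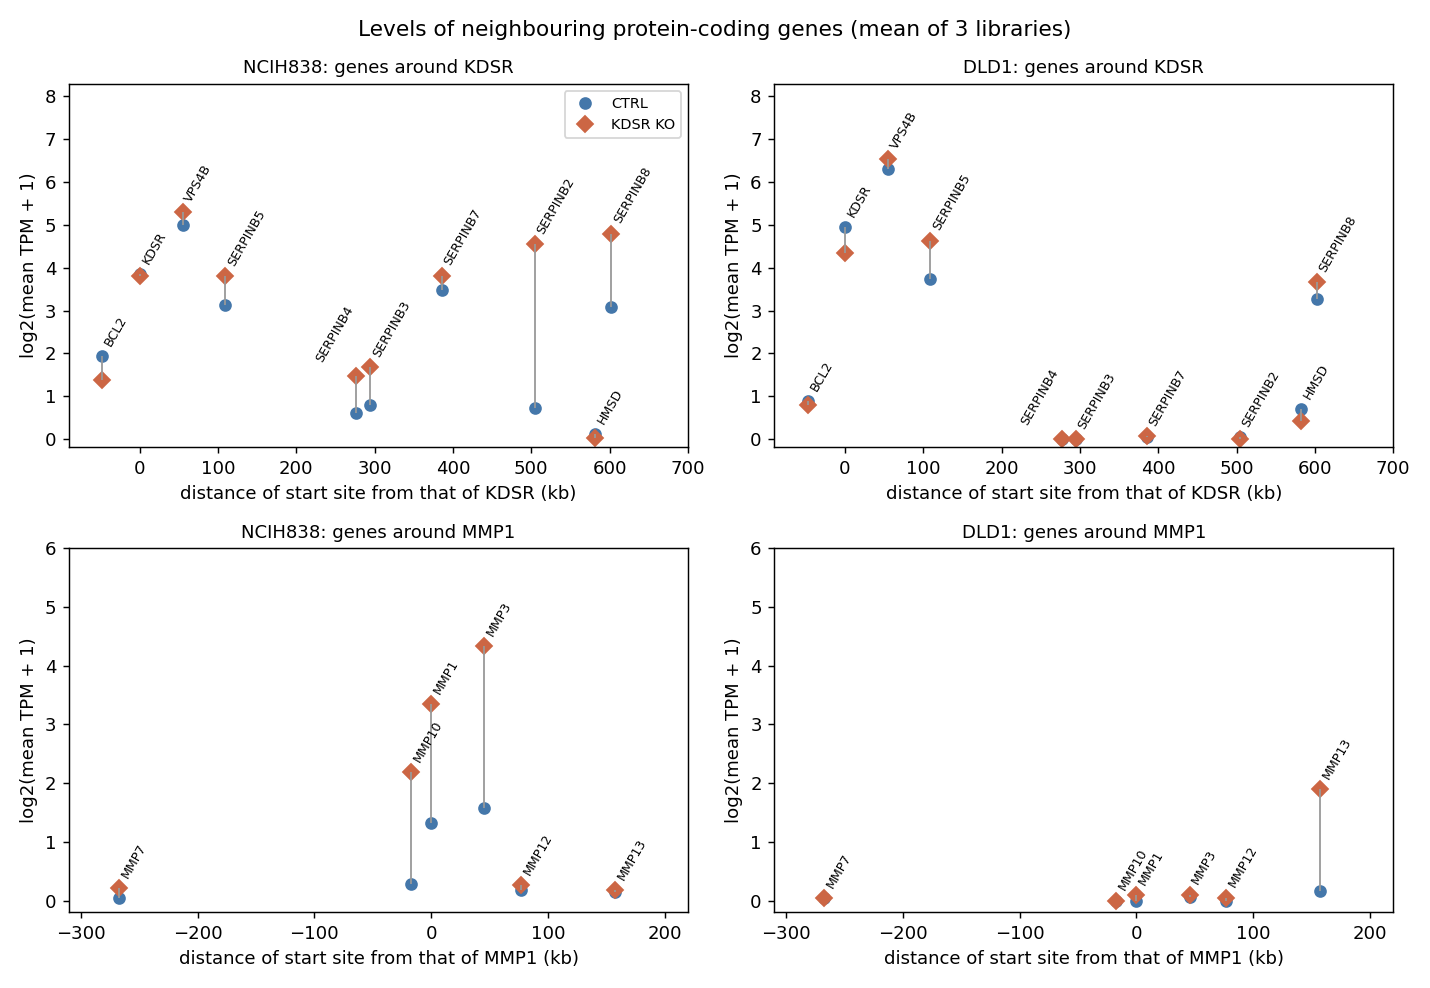
Mean level of protein-coding genes as log2(mean TPM + 1) against the distance of their start site in kb from that of KDSR (top) or MMP1 (bottom), in NCIH838 (left) and DLD1 (right). Circles are CTRL, diamonds KDSR KO, each a mean of 3 libraries. In NCIH838 the gaps of SERPINB2 and SERPINB8 are wide, and in DLD1 MMP13 is the gene of the MMP1 neighbourhood with a visible gap.

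The neighbourhood of MMP1 holds further metalloproteinases. In NCIH838 the collagenase MMP13, whose start site is 157.6 kb from that of MMP1, had 5 reads in CTRL and 6 in KDSR KO. In DLD1 MMP13 went from 0.119 ± 0.0321 to 2.72 ± 0.342 TPM, or from 5 to 114 reads (difference 1.73, SE 0.11). It passed the filter there only through KDSR KO, so it had to differ and is given with no p. In HUH7 it had 6 and 4 reads. The elastase MMP12 and the matrilysin MMP7 had at most 8 reads in any group.

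Among the other metalloproteinases, 15 of 19 listed genes have a row and 5 were tested in NCIH838, of which 1 rose and 3 fell, beside 15.7% and 26.8% of all genes tested, with a median of -0.317 against -0.0868. The membrane-type MMP15 fell from 89.1 ± 11.8 to 56.4 ± 4.34 TPM (difference -0.64, limma adjusted p = 5.37e-05) and MMP17 from 6.13 to 3.31 TPM (-0.74, limma adjusted p = 0.000366). MMP11 went from 1.7 to 1.17 TPM (limma adjusted p = 0.00835), a call lost when the line was fitted alone (0.162). MMP19 was the one that rose, from 2.17 to 2.9 TPM (limma adjusted p = 0.00862), a call lost with a pseudocount of 0.1 (0.237), with limma voom (0.0599) and when the line was fitted alone (0.104). The median was -0.523 with limma voom. In DLD1, 4 were tested, with 1 called higher and 2 lower, beside 5.16% and 12.1% of all genes tested. MMP11 and MMP15 fell. MMP13 was the one called higher, but it had to differ given the filter and adds nothing to the count. The gelatinases MMP2 and MMP9 averaged at most 0.445 TPM in every DLD1 and NCIH838 group and were not tested.

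Of the 6 metalloproteinase inhibitors, 5 were tested in NCIH838, where 1 rose and 3 fell, beside 15.7% and 26.8% of all genes tested (median -0.329 against -0.0868). TIMP1 rose from 214 ± 13.2 to 359 ± 20.9 TPM (difference 0.74, limma adjusted p = 2.03e-07). TIMP2 fell from 262 to 209 TPM (-0.33, limma adjusted p = 0.000143), TIMP3 from 8.84 to 6.53 TPM (-0.38, limma adjusted p = 0.00103) and the membrane-anchored inhibitor RECK from 31.1 to 17.5 TPM (-0.80, limma adjusted p = 7.88e-06). In DLD1, 5 were tested, with 1 called higher and 1 lower, beside 5.16% and 12.1% of all genes tested. The calls of TIMP1 and TIMP3 had the other sign there: TIMP1 fell from 390 to 328 TPM (limma adjusted p = 0.0113) and TIMP3 rose from 6.62 to 8.92 TPM (limma adjusted p = 0.00421). The difference between the lines was not tested. The TIMP1 call in DLD1 was lost without DLD1 CTRL replicate 3 (0.0586) and without DLD1 KDSR KO replicate 3 (0.0542).

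Of the plasminogen system partners, 6 were tested in NCIH838, where 1 rose and 3 fell, beside 15.7% and 26.8% of all genes tested (median -0.249 against -0.0868). SERPINE2, protease nexin 1, rose from 69.3 to 107 TPM (difference 0.61, limma adjusted p = 3.19e-06). S100A10, which binds plasminogen at the cell surface with ANXA2, fell from 1780 to 1150 TPM (-0.63, limma adjusted p = 3.07e-07), and ANXA2 stood at 582 ± 19.9 and 547 ± 29.1 TPM (limma adjusted p = 0.106). PLGRKT, a plasminogen receptor, fell from 15.5 to 11.3 TPM (-0.43, limma adjusted p = 0.00186), and F12 was the third fall. The F12 groups overlapped, and its call (limma adjusted p = 0.0257) was lost in 7 of 25 alternatives, among them median ratio scaling (0.0583). In DLD1, 6 were tested, with 2 called higher and 1 lower, beside 5.16% and 12.1% of all genes tested. SERPINE2 rose from 11.7 to 15.2 TPM (0.35, limma adjusted p = 0.0025) and ANXA2 from 659 to 760 TPM (0.21, limma adjusted p = 0.00517). F12 fell there, a call lost with a pseudocount of 0.1 (0.0553) and without DLD1 CTRL replicate 2 (0.0742) or KDSR KO replicate 3 (0.0719).

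Of the hyaluronan genes beside CEMIP, 8 were tested in NCIH838, where 2 rose and 4 fell, beside 15.7% and 26.8% of all genes tested (median -0.161 against -0.0868). The synthase HAS3 rose from 9.79 to 15.0 TPM (difference 0.57, limma adjusted p = 0.000236) and the receptor CD44 from 93.1 to 125 TPM (0.42, limma adjusted p = 0.000953). The hyaluronidases HYAL1 and HYAL2 fell from 20.9 to 11.6 TPM (-0.79, limma adjusted p = 0.000202) and from 23.8 to 15.6 TPM (-0.58, limma adjusted p = 3.11e-05). The paralog CEMIP2 fell from 41.1 to 31.7 TPM (-0.37, limma adjusted p = 0.00114), while CEMIP was higher by value. HMMR was the fourth fall. In DLD1, 9 were tested, with 1 called higher and 2 lower, beside 5.16% and 12.1% of all genes tested. UGDH rose and HYAL2 fell from 46.7 to 35.3 TPM (-0.40, limma adjusted p = 0.00343). HYAL3 also fell, a call lost with median ratio scaling (0.051) and without DLD1 CTRL replicate 3 (0.0587) or KDSR KO replicate 1 (0.0647). HAS2 was listed at 0 in all NCIH838 libraries.

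Other proteases moved in both directions. The counts of the following lists stand beside 15.7% higher and 26.8% lower over all genes tested in NCIH838 (median -0.0868) and 5.16% higher and 12.1% lower in DLD1. Of 12 ADAM and ADAMTS genes tested in NCIH838, 2 rose and 4 fell (median -0.0841), among them ADAMTS1 from 14.7 to 28 TPM (difference 0.88, limma adjusted p = 6.25e-09) and ADAM10 from 54.7 to 38.1 TPM (-0.52, limma adjusted p = 0.000881). In DLD1, ADAM17 rose from 17.2 to 23.2 TPM (0.41, limma adjusted p = 0.00136) and ADAM15 fell, of 6 tested. Of 6 cysteine cathepsins tested, 2 rose and 3 fell in NCIH838 (median -0.0935), with CTSL from 314 to 451 TPM (0.52, limma adjusted p = 3.37e-06) and CTSV from 23.0 to 13.1 TPM (-0.77, limma adjusted p = 2.17e-06), and 2 fell in DLD1, CTSH and CTSC, of which the CTSC call was lost in 16 of 25 alternatives. Of 5 proprotein convertases tested, PCSK1 fell in NCIH838, from 19.3 to 14.1 TPM (-0.42, limma adjusted p = 0.00102), a call lost with a pseudocount of 0.1 (0.215), and the median was -0.114. In DLD1, 1 of 4 fell, PCSK6 from 10.8 to 9.31 TPM (-0.19, limma adjusted p = 0.0403), a call lost in most alternatives, among them fitting the line alone (0.148). Of 10 matrix substrates tested in NCIH838, 5 rose and 1 fell, beside 15.7% and 26.8% of all genes tested (median 0.303 against -0.0868). TNC, tenascin C, rose from 58.7 to 107 TPM (0.85, limma adjusted p = 1.3e-06), COL6A2 from 19.5 to 34.9 TPM (0.80, limma adjusted p = 3.86e-05), and vitronectin, VTN, which binds PLAUR, fell from 40 to 19.2 TPM (-1.03, limma adjusted p = 5.02e-05). In DLD1, 1 of 6 rose and 2 fell. In HUH7, 0 genes were called in each of these lists.

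AP-1 subunits, whose element stands in the SERPINB2, MMP10 and PLAUR windows shown above, had values as follows. In NCIH838, 6 of 9 tested rose and 2 fell, beside 15.7% and 26.8% of all genes tested (median 1.09 against -0.0868), with FOSL1 from 60.7 to 379 TPM (difference 2.63, limma adjusted p = 2.17e-09). In DLD1, 4 of 9 rose and 0 fell, beside 5.16% and 12.1% of all genes tested (median 0.381 against -0.0721 over all genes tested), with JUN from 41.1 to 127 TPM (1.61, limma adjusted p = 9.71e-09). The 2 falls, FOSL2 and JUND, were not called with median ratio scaling. A link between these levels and those of the 9 genes was not tested.

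**Figure D4:**
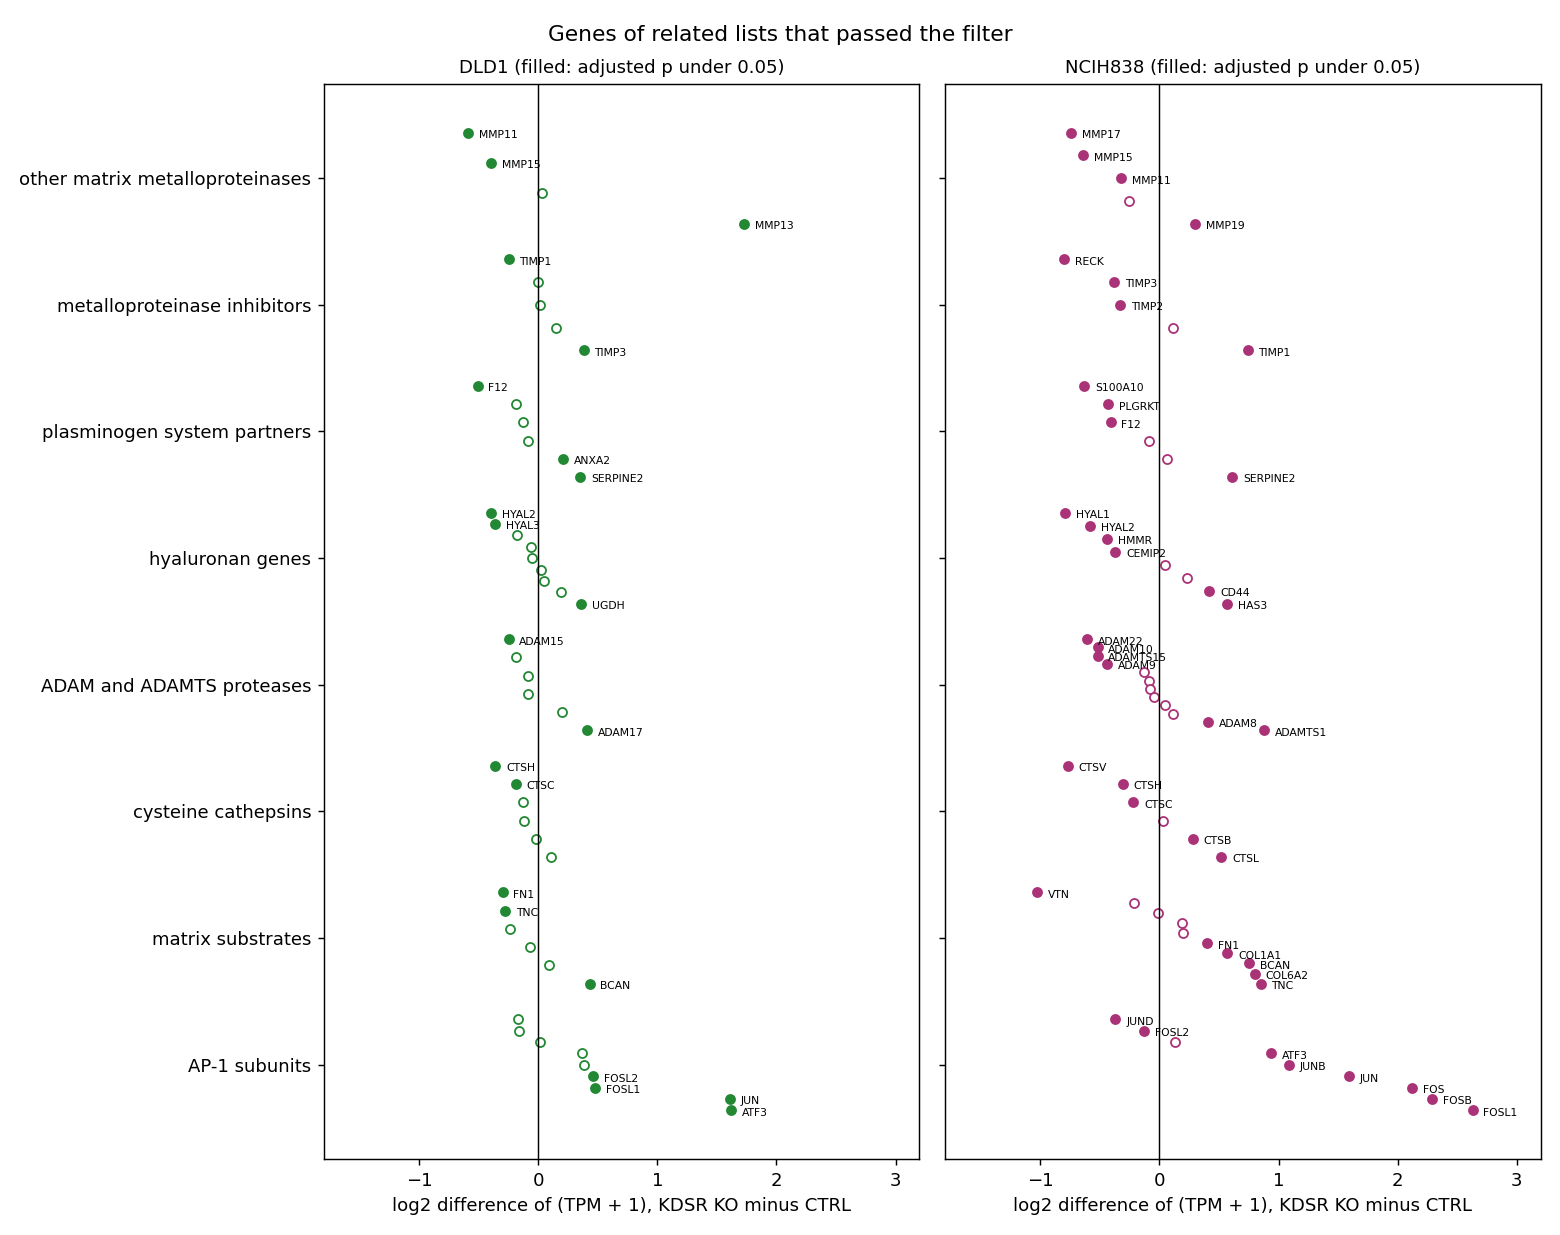
Difference KDSR KO minus CTRL on the log2(TPM + 1) scale for listed genes that passed the filter in DLD1 (left) and NCIH838 (right), 1 row of points per list. Filled and named points have an adjusted p under 0.05. In NCIH838 FOSL1 lies at 2.63, and most lists hold both rises and falls.

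Markers of other cells were set beside these results. In NCIH838 the 7 fibroblast markers summed to 42.7 to 49.5 TPM in CTRL and to 33.6 to 39.1 TPM in KDSR KO, with 3 of 7 at 1 TPM or more. COL1A1 rose from 2.45 to 4.14 TPM (limma adjusted p = 0.0012) and LUM fell from 10.5 to 3.61 TPM (limma adjusted p = 1.76e-05). The 6 leukocyte markers summed to 20.5 to 24.9 and 20.3 to 26.9 TPM, with PTPRC and CD163 at 0 in CTRL and LYZ at 0 in KDSR KO, and 1 of 6 reached 1 TPM. Both sums were higher in HUH7. There the fibroblast markers summed to 464 to 610 TPM in CTRL and to 573 to 588 TPM in KDSR KO. The leukocyte markers summed to 158 to 192 and 176 to 219 TPM. Both sums were lower in DLD1, at 1.17 to 1.71 TPM (fibroblast) and 5.02 to 6.32 TPM (leukocyte) in CTRL. The part of these genes in the levels of the 9 was not tested.

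Likeness to SERPINB2, MMP3 and CEMIP was measured as Pearson r over the 18 libraries of the deviation of log2(TPM + 1) from the CTRL mean of the same line, among the 16346 other genes that passed the filter in NCIH838. The libraries share lines and groups, so r describes these libraries and has no p. The genes most like SERPINB2 were MARCH4 (r = 0.999), IGFN1 (0.998), SPRY4 (0.997) and IL1RL1 (0.995). For MMP3 they were PLPP4 (0.997), AL445471.1 (0.995), PASD1 (0.991) and CD53 (0.99), and for CEMIP they were PGF, RHCG and MEFV (0.995 each) and IL1RL1 (0.994). In NCIH838 MARCH4 stood at 14.1 and 54.4 TPM, PGF at 0.614 and 8.16 TPM, and IL1RL1, the receptor of interleukin 33, at 0.0744 and 5.03 TPM in CTRL and KDSR KO. With 0.1 in place of 1 added to TPM, 2 of the 12 names stayed. Among the members, SERPINB2, MMP1, MMP3, MMP10 and CEMIP had r of 0.97 to 0.989 in pairs, PLAUR had 0.86 to 0.889 with each of those 5, and MMP14 had -0.732 to -0.766. In HUH7 and DLD1 those 5 had few reads or a difference near 0, so their r rests on the step between the NCIH838 groups. That step chose the genes and also enters the r of the 12 names, so nothing about shared control is read from these r.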

How the data were processed

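RNA was sequenced from 18 cultures, 3 per group, and the authors deposited TPM values for 27166 genes. Reads were counted with featureCounts 2.0.0 on hg38, per the submitters' processing notes. The aligner, the strand setting and the treatment of multi-mapped reads are not given in the sources used here. All identifiers, names, start positions and exon lengths matched GENCODE 29, and coordinates come from it. TPM times length gave whole reads for 100% of values within 0.01 of a read. These recovered reads served for depth, ratios and limma voom, an alternative added after seeing the data. All 18 value columns were mapped to samples.

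The members and lists were chosen with earlier results of these data known. Levels as log2(TPM + 1) were modelled by limma 3.58.1 (R 4.3.3, lmFit and eBayes with trend and robust options) as 6 group means, leaving 12 residual degrees of freedom. Genes were tested in a line at a mean of at least 1 TPM over its 6 libraries, adjusted by Benjamini-Hochberg over those genes, and called at an adjusted p under 0.05. Contrasts were KDSR KO minus CTRL per line, CTRL of DLD1 minus CTRL of HUH7, and the DLD1 response minus the HUH7 response. A few listed genes are not reported here and were left out of the list counts. Members have no p in contrasts that involve NCIH838. Genes named are the 9 members, KDSR, up to 4 called genes of each list with the smallest p in DLD1 or NCIH838, a fixed set of partners, the chromosome 18 neighbours and the 4 genes most like each of SERPINB2, MMP3 and CEMIP. MMP12, MMP19, F12, FOSL2, JUND, CTSC, ADAM8, UGDH, HYAL3, HMMR and ADAM15, and C10orf55, MESD and WTAPP1, were named outside that rule after their values were seen. Alternatives were a pseudocount of 0.1, no filter, a stricter filter (5 TPM), scaling by median ratios over genes that reach 10 TPM in every library, a replicate block, lines fitted alone, limma voom and leaving out each library. The smallest p of an exact permutation test of 3 against 3 is 0.1. Promoter windows are RefSeq's (GRCh38.p14).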

Additional observations from a re-analysis of the deposited data

Results flagged for a closer look

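The response to KDSR KO differed between DLD1 and HUH7, by limma's test of the difference between the responses, for 6 of the listed genes tested in both lines, all of them outside the 9 members. Over all 13412 genes tested in both lines, 2.62% differed in this way, and 0 of the 3 members tested did (MMP14, PLAU and PLAUR). The lists were chosen with earlier results of these data known, so nothing is read from the count of 6. JUN, an AP-1 subunit, rose from 41.1 to 127 TPM in DLD1 and stood at 142 and 144 TPM in HUH7, a difference of responses of 1.59 (SE 0.12, limma adjusted p = 1.23e-06). ATF3, which pairs with JUN, rose from 15.0 to 48.1 TPM in DLD1 and stood at 9.45 and 10.3 TPM in HUH7 (1.52, SE 0.09, limma adjusted p = 5.37e-08). FOSL2, another AP-1 subunit, rose from 44.3 to 61.3 TPM in DLD1 and stood at 8.31 and 8.54 TPM in HUH7 (0.42, SE 0.07, limma adjusted p = 0.00209). ANXA2, a plasminogen receptor, rose in DLD1 and stood at 387 and 370 TPM in HUH7 (0.27, SE 0.06, limma adjusted p = 0.0266). The colon marker CDX2 fell from 246 to 175 TPM in DLD1 and stood at 3.32 and 3.49 TPM in HUH7 (-0.55, SE 0.12, limma adjusted p = 0.0229). The CDX2 call in DLD1 was lost with a pseudocount of 0.1 (limma adjusted p = 0.0733). VIL1, of the same list, fell from 16.1 to 11.3 TPM in DLD1 and stood at 111 and 109 TPM in HUH7 (-0.45, SE 0.07, limma adjusted p = 0.00212). Of the other colon markers in DLD1, LGR5 fell, CEACAM5 rose from 2.31 to 4.07 TPM (0.61, limma adjusted p = 0.0019), and GPA33, under the filter, stood at 0.569 and 1.23 TPM.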

How the results depend on the processing

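The 9 NCIH838 differences kept their signs in every alternative run. With a pseudocount of 0.1 or with limma voom they grew for genes of low level, to 5.12 and 5.33 for SERPINB2, 3.59 and 3.86 for MMP10, 3.33 and 3.39 for MMP3 and 2.54 and 2.60 for MMP1, and limma voom gave 2.71 for CEMIP. Of 570 member differences under alternatives, 547 counted as unchanged, 2 lost a call, 5 gained one, 7 turned sign and 9 moved. Outside NCIH838, unchanged meant the same sign and side of the threshold. In NCIH838, where members have no p, it meant the same sign and a shift under the larger group SD. A larger shift there counted as moved. Those that turned sign were near 0. Leaving out 1 library each, PLAUR in HUH7 ranged from -0.144 to 0.0915 (turning without HUH7 CTRL replicate 1 and without KDSR KO replicate 1), MMP14 in DLD1 from -0.042 to 0.143 (turning without CTRL replicate 1 or 2), CEMIP in DLD1 from -0.0559 to 0.0662 (turning without CTRL replicate 1 or KDSR KO replicate 2), and the DLD1 minus HUH7 response of PLAU from -0.0238 to 0.198 (turning without HUH7 CTRL replicate 1). The cause was not tested.

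The count of called genes in HUH7 was 0, against 9 with no filter, 2 with median ratio scaling and 1 with the replicate block, and 0 to 7 with 1 library left out (7 without CTRL replicate 3, 6 without CTRL replicate 2). In DLD1 it was 2674, and 1605 to 3286 with 1 library left out (1605 without CTRL replicate 3, 1753 without KDSR KO replicate 3). DLD1 responses that differed from HUH7 numbered 351, against 213 with the replicate block and 199 to 455 with 1 library left out (199 without HUH7 KDSR KO replicate 2, 219 without DLD1 KDSR KO replicate 1). With median ratio scaling the calls in DLD1 split into 1147 higher and 1263 lower, against 799 and 1875. Likeness kept 2 of 12 names with a pseudocount of 0.1. Replicate numbers did not pair the libraries (r of same-numbered deviations -0.0515 to 0.127), and the replicate block changed no call of a member. Of 2035 alternatives of called listed genes, 121 lost the call, most often CTSC (16), PCSK6 (14) and TNC (8) in DLD1, and VPS4B (13), FOSL2 (12), THY1 (8), and ADAM8, JUND and F12 (7 each) in NCIH838. FOSL1 in DLD1 lost it in 5, and the replicate block moved it to an adjusted p of 0.0684. The planned edgeR test and voom with TMM factors were not run, since the deposited unit is TPM. At this depth, MMP1, MMP3, MMP10 and SERPINB2 in HUH7 and DLD1 stood at 3 reads or fewer per library.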
